A study of Mus musculus with 16 samples.

Results

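The genes of cholesterol synthesis, uptake and efflux were followed in mouse liver as 34 listed symbols, and all 34 were found among the 50559 gene symbols of the expected count table. They comprised 20 synthesis enzymes, 4 regulators (Srebf2, Scap, Insig1 and Insig2), 5 genes of uptake and intracellular transport (Scarb1, Mylip, Npc1, Npc2 and Stard4), the esterifying enzyme Soat2 and 4 exporters (Abca1, Abcg1, Abcg5 and Abcg8). The rule names the genes by function and uses no measured value, though the list was drawn up with earlier results of these data known. All 34 passed the filter on low counts that left 18335 genes for testing, and no member was lost to it.

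Liver RNA came from 16 male C57BL/6J mice, 4 in each of 4 groups, that were 6 weeks old at the start and spent 10 weeks on their diet. The LFD group ate a low-fat diet, which the labels call chow, and the HFD, HFD + siRNA and HFD + Inhib groups ate a high-fat diet. During the last 4 weeks the HFD + siRNA mice received 20 mg/kg of an siRNA against ketohexokinase (KHK, the first enzyme of fructose breakdown) every 2 weeks, coupled to GalNAc, a sugar that directs it to hepatocytes, together with a gavage of methylcellulose. The HFD + Inhib mice received the KHK inhibitor PF-06835919 at 15 mg/kg in methylcellulose, a systemic drug, together with 10 mg/kg of control siRNA against luciferase. The LFD and HFD mice received the same control siRNA and methylcellulose alone, so every group carried an siRNA and a gavage. The study's methods state that mice were injected with saline or insulin shortly before tissue collection, and the labels do not say which library came from which injection, so its part in the values was not tested. The libraries held 24317111 to 35820234 counts. In bulk liver, fewer cells of a type and less RNA per cell cannot be told apart.

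Hepatocytes make cholesterol from acetyl-CoA through mevalonate, squalene and lanosterol. SREBP2, the product of Srebf2, is the transcription factor that drives these enzymes: SCAP carries it out of the endoplasmic reticulum when sterols are low, and the INSIG proteins hold SCAP back when sterols are high. Lipoprotein cholesterol enters through receptors, leaves the lysosome through NPC1 and NPC2, and is stored as ester by SOAT2. Cholesterol is exported to apolipoproteins by ABCA1, to HDL (high-density lipoprotein) by ABCG1 and into bile by the ABCG5 and ABCG8 pair. LXR nuclear receptors, which sense oxidised sterols, are known to induce the exporters and Mylip.

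Khk, the target of both treatments, was measured first as a check of the labels. Its levels in CPM, counts scaled to a common library size with TMM factors, were 214, 233, 349 and 269 in LFD replicates 1 to 4 and 251, 322, 233 and 251 in HFD. They were 11.8, 9.14, 18.1 and 11.5 in HFD + siRNA and 112, 152, 94.6 and 120.5 in HFD + Inhib. No HFD + siRNA or HFD + Inhib library reached the lowest HFD library. From HFD, Khk fell by 4.38 on the log2 scale with the siRNA (SE 0.23, adjusted p = 1.9e-08) and fell by 1.14 with the inhibitor (SE 0.20, adjusted p = 7.5e-04). Unless another fit is named, the p-values come from edgeR's quasi-likelihood test over the 16 libraries with Benjamini-Hochberg adjustment over the 18335 genes, and a gene is called at an adjusted p under 0.05.

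Within the groups, some libraries stood apart in synthesis as a whole. HFD + siRNA replicate 1 was the lowest of its group for 19 of the 20 enzymes, and its level over the mean of the other 3 replicates had a median of 0.424 (0.27 for Sqle to 0.965 for Ggps1), against a median of 0.997 over all tested genes. In the same library Abcg5 stood at 1.66 times and Abcg8 at 1.59 times the mean of the other replicates, and over the 10 uptake, esterification and efflux genes the median was 1.06 (0.582 for Stard4 to 1.66 for Abcg5, 4 of 10 below 1). Of the regulators, Insig1 stood at 0.653, Insig2 at 0.621, Srebf2 at 0.712 and Scap at 1.06 times that mean. HFD + Inhib replicate 1 was lowest for 19 enzymes and replicate 3 highest for 17, while HFD replicate 2 was highest for 16 and HFD replicate 1 lowest for 13. The summed level of the 20 enzymes ranged from 1449 to 3466 CPM among the HFD + siRNA libraries and from 2225 to 3309.5 CPM among the HFD libraries. The counts of called enzymes are therefore also given without the libraries that decide them.

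**Figure D1:**
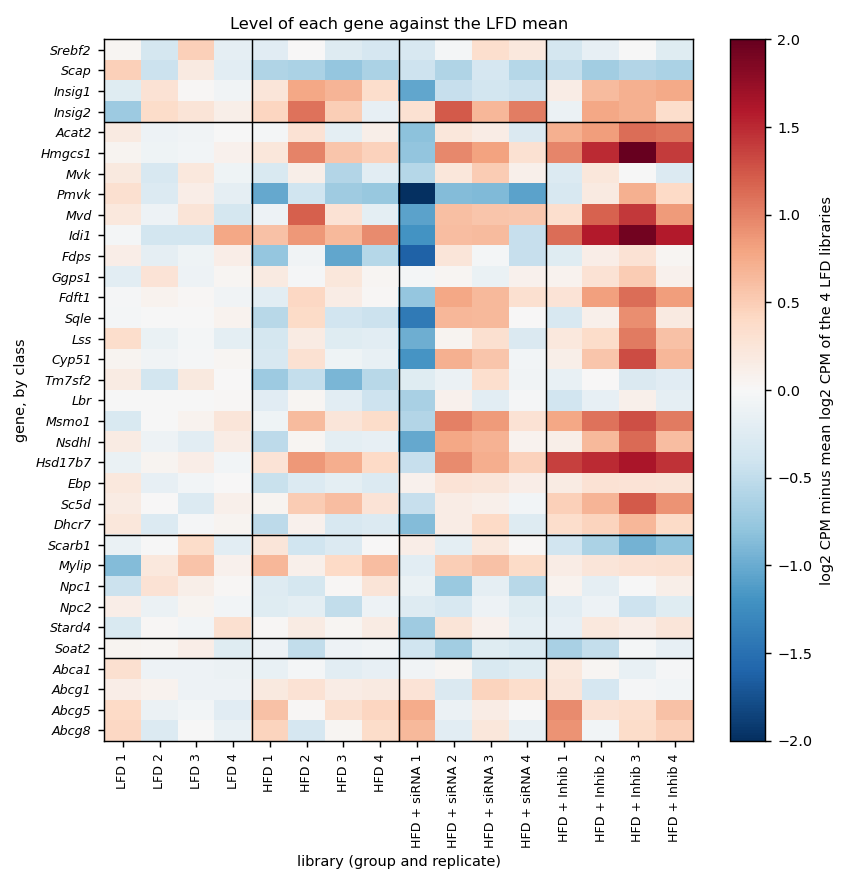
Level of each of the 34 genes (rows, by class) in each of the 16 libraries (columns, by group and replicate), as log2 CPM minus the mean log2 CPM of the 4 LFD libraries. Red is higher and blue lower than LFD, the colours end at 2.0 in either direction, and the values run from -2.22 (Pmvk in HFD + siRNA replicate 1) to 2.11 (Hmgcs1 in HFD + Inhib replicate 3). The synthesis rows other than Ebp (0.09) and Ggps1 (-0.04) are blue in HFD + siRNA replicate 1, the synthesis rows are mostly red in HFD + Inhib, and the uptake, esterification and efflux rows hold few strong colours.

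The comparisons also followed the GC content of the transcripts. Across 8337 well-expressed genes the Spearman correlation of log2 fold change with GC content was -0.53 for HFD versus LFD and 0.51 for HFD + siRNA versus HFD. It was -0.28 when HFD + Inhib was set against HFD and -0.54 when set against HFD + siRNA, a description in which genes are not independent replicates. After a correction for GC content and length in each library, 2, 2, 9 and 9 synthesis enzymes were called in the 4 comparisons in that order, against 2, 2, 10 and 7 without it. Of the 16088 genes in the corrected fit 15.4%, 9.04%, 21.2% and 27.8% were called in the same order. The corrected median log2 fold changes of the 20 enzymes were -0.12, 0.13, 0.71 and 0.58.

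Per kilobase of transcript, the most abundant of the 34 genes differed between groups. In LFD Fdps (farnesyl diphosphate synthase) stood at 165, Insig1 at 134, Hmgcs1 (HMG-CoA synthase, which makes HMG-CoA) at 118 and Sc5d (sterol C5 desaturase) at 98.6 CPM per kilobase. In HFD + Inhib the order was Hmgcs1 at 346, Insig1 at 199, Sc5d at 177 and Fdps at 172. The lowest, averaged over all 16 libraries, were Abcg1 at 2.2, Ggps1 (geranylgeranyl diphosphate synthase) at 2.8, Mylip at 4.64 and Lbr at 4.72. Some of these genes share sequence with other transcripts, counted as words of 50 bases: 39.1% of the words of Acat2 also occur elsewhere, most of them in Acat3, and the shares were 26.2% for Fdps, 17.7% for Idi1, 9.87% for Tm7sf2 (with Vps51) and 9.38% for Fdft1. Levels of these 5 genes are therefore less certain.

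The regulators were described first. Srebf2 stood at 69.6, 53.2, 94.2 and 59.7 CPM in LFD and at 58, 67.8, 56.3 and 53.6 in HFD. In HFD + siRNA it stood at 54.3, 65.4, 85.7 and 77.9, and in HFD + Inhib at 53.2, 60.2, 67.4 and 57.4. All 4 groups overlapped, and Srebf2 was called in none of the 4 comparisons, with log2 fold changes between -0.25 and 0.26. Insig1, itself a known SREBP target, was at 303, 439.6, 363 and 342 CPM in LFD and at 426, 612, 577 and 456 in HFD. It was at 175, 259.7, 277 and 267 in HFD + siRNA and at 399, 558, 589 and 604 in HFD + Inhib. The HFD + siRNA libraries lay below every library of the other 3 groups. Scap was at 242, 129, 197 and 151 CPM in LFD and at 115, 112, 102 and 112 in HFD, with no overlap. Its levels were 131, 115, 139 and 117 in HFD + siRNA and 126, 108, 116 and 112 in HFD + Inhib, so the LFD replicates 1, 3 and 4 were higher than any library on the high-fat diet.

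**Figure D2:**
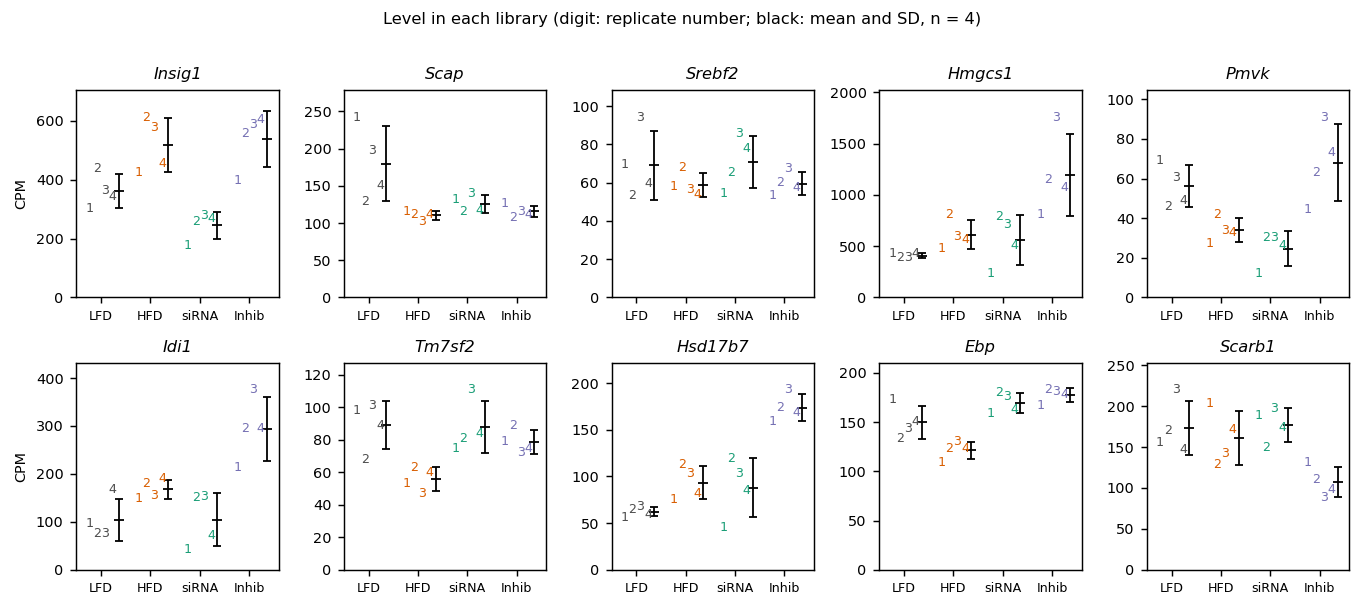
Level in CPM (vertical axis, linear, from 0) of the 10 genes that are given library by library, in the 4 groups (horizontal axis, where siRNA and Inhib stand for HFD + siRNA and HFD + Inhib). Each digit is a library at its replicate number, and the black mark and bar are the mean and SD (n = 4). Insig1 is lowest in HFD + siRNA, Hmgcs1, Idi1 and Hsd17b7 have their highest means in HFD + Inhib, and Scarb1 has its lowest mean there.

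The first comparison asked what the high-fat diet did to these genes. HFD versus LFD called 2 of the 20 synthesis enzymes, both lower, and 2 of the 14 other genes, Scap lower and Insig1 higher. Of all tested genes 18.4% were called in this comparison, 9.58% higher and 8.80% lower, so the 4 of 34 cholesterol genes called (11.8%) were a smaller share than the background. The median log2 fold change was -0.10 over the 20 enzymes and -0.00 over the 10 uptake, esterification and efflux genes, of which none was called, against -0.01 over all tested genes. The median over the enzymes ran from -0.23 without HFD replicate 2 to -0.02 without LFD replicate 1.

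Tm7sf2, a sterol delta-14 reductase that acts after lanosterol, was at 98.4, 68.2, 101 and 88.9 CPM in LFD and at 53.1, 63.2, 46.9 and 60 in HFD. Its groups did not overlap, and it fell by 0.68 on the log2 scale (SE 0.14, adjusted p = 0.00433). Ebp, the sterol isomerase of the next steps, was at 173, 133, 143 and 150.1 CPM in LFD and at 109, 123, 130.3 and 123 in HFD, a fall by 0.30 (SE 0.09, adjusted p = 0.0241) with no overlap. Scap fell by 0.71 (SE 0.15, adjusted p = 0.00429). Insig1 rose by 0.52 (SE 0.17, adjusted p = 0.0451), with HFD replicate 1 inside the LFD range. The Insig1 call was lost without LFD replicate 1, 3 or 4 or HFD replicate 2, 3 or 4 (adjusted p up to 0.125), and the Ebp call without LFD replicate 1 or HFD replicate 1 or 4 (up to 0.11), and also without a filter on low counts (0.0686) and in the fit of the LFD and HFD libraries alone (0.0778). Scap and Tm7sf2 kept their calls in all 17 alternatives run.

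Other enzymes had groups that stood apart without passing the test. Pmvk (phosphomevalonate kinase) was at 69.2, 46.1, 60.6 and 48.8 CPM in LFD and at 27.3, 41.9, 33.9 and 32.9 in HFD, a log2 fold change of -0.72 (SE 0.25, adjusted p = 0.0587). Hmgcs1 was at 425, 386, 391 and 433 CPM in LFD and at 477, 808, 598 and 561 in HFD, a log2 fold change of 0.58 (SE 0.29, adjusted p = 0.178). Hsd17b7, the 3-keto sterol reductase, was at 56.5, 64.5, 67.8 and 59.6 CPM in LFD and at 75, 113, 103 and 81.5 in HFD, a log2 fold change of 0.58 (SE 0.21, adjusted p = 0.0646). None of these 3 genes had overlapping groups, and neither did the exporter gene Abcg1 (adjusted p = 0.352). How many of all tested genes lacked overlap was not counted. All 3 enzymes passed the threshold when only the LFD and HFD libraries were fitted (adjusted p of 0.0188, 0.0348 and 0.0222 in the same order). Idi1, the isopentenyl diphosphate isomerase, was at 95.8, 76, 76.7 and 168 CPM in LFD and at 148, 179, 155 and 189.7 in HFD, where LFD replicate 4 lay among the HFD libraries (log2 fold change 0.69, SE 0.33, adjusted p = 0.164, and 0.0418 without that replicate).

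The next comparison asked what knockdown of hepatocyte KHK did on the high-fat diet. HFD + siRNA versus HFD called 2 of 20 synthesis enzymes, Tm7sf2 and Ebp, both higher, and 1 of the 14 other genes, Insig1, lower. The background was 11.7% called, 5.20% higher and 6.55% lower, and 3 of the 34 genes (8.82%) were called. Both enzymes were among those lower in HFD than in LFD, and the HFD libraries served in both comparisons. The median log2 fold change was 0.09 over the 20 enzymes and -0.06 over the 10 uptake, esterification and efflux genes, none of which was called, against 0.02 over all tested genes.

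Insig1 fell by 1.08 on the log2 scale in HFD + siRNA versus HFD (SE 0.17, adjusted p = 0.00152), with a highest HFD + siRNA library of 277 CPM and a lowest HFD library of 426. Tm7sf2 was at 74.7, 81.1, 111 and 84.2 CPM in HFD + siRNA, all above the highest HFD library, and rose by 0.65 (SE 0.14, adjusted p = 0.00782). Ebp was at 159, 180, 176 and 163 CPM in HFD + siRNA, again above every HFD library, and rose by 0.48 (SE 0.09, adjusted p = 0.00304). These 3 calls held in all 17 alternatives run, including the one without HFD + siRNA replicate 1.

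For the 4 other enzymes given library by library, HFD + siRNA replicate 1 lay below the other replicates. Hmgcs1 was at 235 CPM in replicate 1 and at 791, 711 and 506 in the others (log2 fold change versus HFD -0.12, SE 0.29, adjusted p = 0.825), and the sign turned without replicate 1 (0.12). Hsd17b7 was at 44.8 CPM in replicate 1 and at 119.5, 103 and 85.1 in the others (log2 fold change -0.08, SE 0.21, adjusted p = 0.849), with 0.12 without replicate 1. Pmvk was at 11.9, 30.4, 30.2 and 26.3 CPM (log2 fold change -0.46, SE 0.26, adjusted p = 0.261), with -0.25 without replicate 1. Idi1 was at 42.8, 151, 153 and 71.7 CPM (log2 fold change -0.68, SE 0.33, adjusted p = 0.203), with -0.44 without replicate 1. These values did not pass the test in either form. Leaving out replicate 1 moved the median over the 20 enzymes from 0.09 to 0.26 and the number called from 2 to 3, with Nsdhl (a sterol dehydrogenase) added. Over all 8 fits that leave out 1 library this median ran from -0.07 without HFD + siRNA replicate 2 to 0.29 without HFD replicate 2, so its sign rests on single libraries.

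The third comparison asked the same of the KHK inhibitor. HFD + Inhib versus HFD called 10 of 20 synthesis enzymes, all higher, and all 20 had a positive log2 fold change, the lowest being Lbr at 0.05, which became -0.03 with the GC and length correction, -0.02 without HFD replicate 4 and -0.04 without HFD + Inhib replicate 3. The background was 18.2% called, 9.80% higher and 8.42% lower, so the share of enzymes called higher (50%) lay above it. The median over the 20 enzymes was 0.69, with a range of 0.05 to 1.0, against -0.00 over all tested genes. Of the other 14 genes 1 was called, Scarb1, which was lower. No regulator was called in the fit without that correction, and the 4 had log2 fold changes between -0.06 and 0.07. With the GC and length correction Scap passed the threshold (log2 fold change 0.30, adjusted p = 0.0404).

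The 10 enzymes called higher ran from the entry to the end of the pathway: Acat2 (acetoacetyl-CoA thiolase), Hmgcs1, Pmvk, Lss (lanosterol synthase), Tm7sf2, Msmo1 (methylsterol monooxygenase), Nsdhl, Hsd17b7, Ebp and Dhcr7 (7-dehydrocholesterol reductase). Pmvk was at 44.4, 63.1, 90.9 and 73.3 CPM in HFD + Inhib, every library above HFD, and rose by 1.0 on the log2 scale (SE 0.26, adjusted p = 0.0118). Hmgcs1 was at 807, 1151, 1758 and 1076 CPM and rose by 0.97 (SE 0.29, adjusted p = 0.0289), with replicate 1 just below the highest HFD library of 808. Hsd17b7 was at 159, 174, 193 and 168 CPM, all above the highest HFD library of 113, and rose by 0.90 (SE 0.21, adjusted p = 0.00694). Acat2 rose by 0.89 (SE 0.18, adjusted p = 0.00232) from 87.8 ± 12.1 to 163 ± 21.8 CPM (SD, n = 4). Tm7sf2, at 79.1, 88.9, 72.1 and 75 CPM, rose by 0.50 (SE 0.14, adjusted p = 0.0201), and Ebp, at 167, 183, 181 and 178 CPM, rose by 0.55 (SE 0.09, adjusted p = 3.6e-04). Idi1 was at 213, 294, 376 and 295 CPM, above every HFD library, and did not pass the test (log2 fold change 0.81, SE 0.33, adjusted p = 0.109). It passed when only the HFD and HFD + Inhib libraries were fitted (0.80, adjusted p = 0.00661).

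How many enzymes were called depended on single libraries. Of the 10, 4 were called without HFD replicate 1, 4 without HFD replicate 3, 5 without HFD replicate 4, 6 without HFD + Inhib replicate 2 and 5 without HFD + Inhib replicate 3, and 3 at an adjusted p under 0.01. Acat2, Hsd17b7 and Ebp kept their calls in all 17 alternatives run, and Pmvk in all but the stricter threshold. Hmgcs1 lost its call without any 1 of those 5 libraries (adjusted p up to 0.107), Tm7sf2 without HFD replicate 1 or 3 or HFD + Inhib replicate 2, and Lss and Dhcr7 without HFD replicate 1, 3 or 4 or HFD + Inhib replicate 3, Lss also without replicate 4. Msmo1 and Nsdhl were lost in 7 of the 8 fits that leave out 1 library (adjusted p up to 0.141 and 0.146) and after correction for GC content and transcript length (0.0724 and 0.0648). These 10 enzymes kept their direction throughout, and the median over the 20 enzymes stayed between 0.55 and 0.85.

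Scarb1 encodes SR-BI, the receptor that takes cholesterol from HDL into hepatocytes. It was at 155, 169.7, 220.3 and 147 CPM in LFD, 203, 129, 142 and 171 in HFD, 188, 149, 197 and 174 in HFD + siRNA, and 131, 110.4, 88.6 and 98.3 in HFD + Inhib. Versus HFD it fell by 0.59 on the log2 scale with the inhibitor (SE 0.16, adjusted p = 0.0167), and HFD + Inhib replicate 1 lay above the lowest HFD library. This call was lost without HFD replicate 1 (adjusted p = 0.0691), HFD + Inhib replicate 3 (0.0548) or HFD + Inhib replicate 4 (0.0507).

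**Figure D3:**
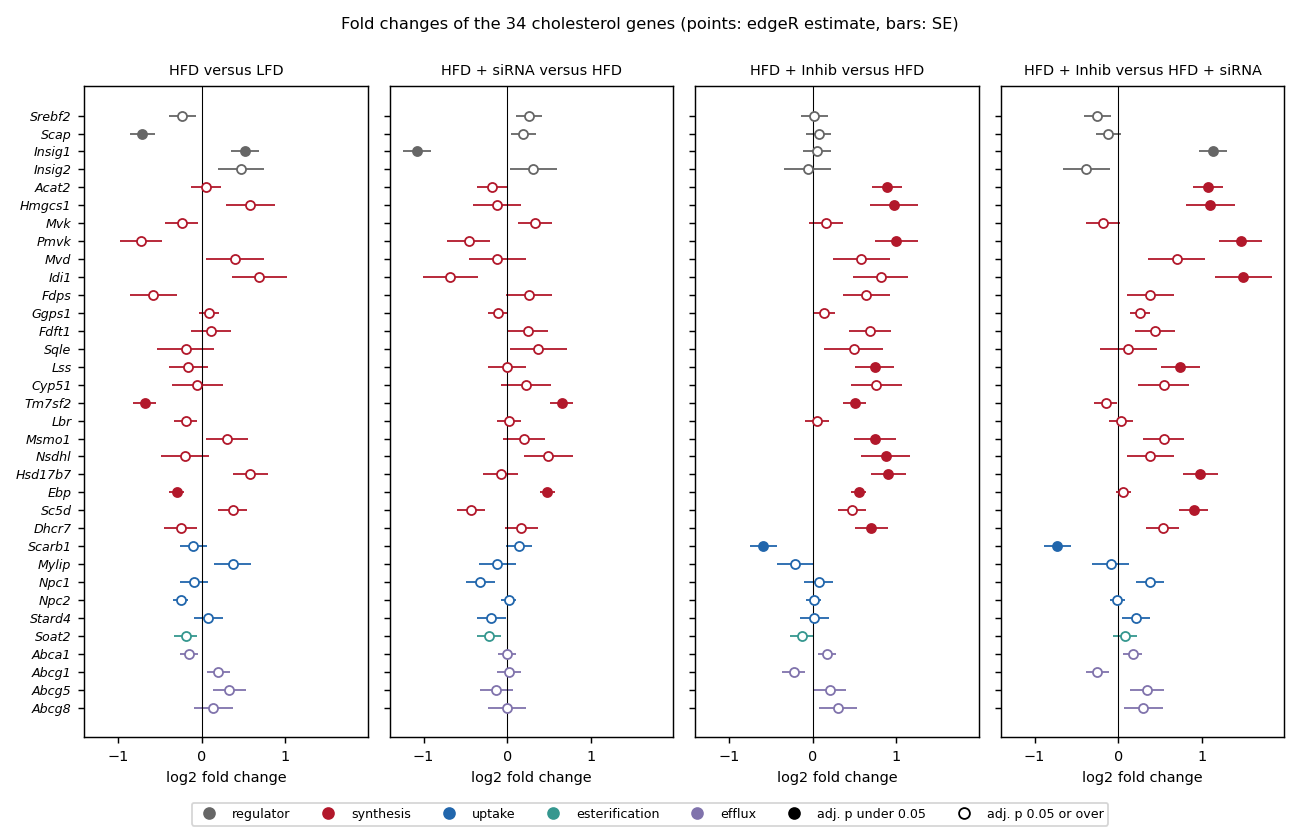
Log2 fold change (horizontal axis) of each of the 34 genes (vertical axis, coloured by class) in the 4 comparisons, from the edgeR fit, with bars for the SE. Filled points have an adjusted p under 0.05. In HFD + Inhib versus HFD all 20 synthesis enzymes lie right of 0 and 10 are filled, and of the uptake, esterification and efflux genes only Scarb1 is filled, in the 2 comparisons with HFD + Inhib.

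Inhibitor and knockdown were then set against each other. HFD + Inhib versus HFD + siRNA called 7 of 20 synthesis enzymes, all higher with the inhibitor, and 2 of the 14 other genes, Insig1 higher and Scarb1 lower. Here the background was 33.8%, with 17.3% higher and 16.6% lower, so the enzymes called (35%) were close to the share of all genes called, and the share called higher was above the 17.3%. With the GC and length correction 9 of the 20 were called, against 27.8% of all genes. The median was 0.54 over the 20 enzymes and 0.12 over the 10 uptake, esterification and efflux genes, against -0.04 over all tested genes. The enzymes called were Acat2, Hmgcs1, Pmvk, Idi1, Lss, Hsd17b7 and Sc5d.

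Idi1 was higher with the inhibitor by 1.49 on the log2 scale (SE 0.34, adjusted p = 0.00318), Pmvk by 1.46 (SE 0.26, adjusted p = 4.9e-04) and Hmgcs1 by 1.10 (SE 0.29, adjusted p = 0.00892). The HFD + Inhib libraries of these 3 genes lay above all HFD + siRNA libraries. Insig1 was higher by 1.13 (SE 0.17, adjusted p = 1.4e-04) and Scarb1 lower, with a log2 fold change of -0.73 (SE 0.16, adjusted p = 0.00254), again with no overlap. Tm7sf2 and Ebp, which were higher in both treated groups than in HFD, had log2 fold changes of -0.15 (SE 0.14, adjusted p = 0.417) and 0.06 (SE 0.09, adjusted p = 0.602) between them. Without HFD + siRNA replicate 1, the library with low synthesis levels, 6 enzymes were called and the median was 0.30. Lss, the enzyme then lost, was the only 1 of the 9 genes called that lost its call in any of the 17 alternatives run (adjusted p up to 0.0855).

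Set side by side, the group levels spread more widely for synthesis than for uptake, esterification and efflux, a description with no test. The summed level of the 20 enzymes was 2443 ± 176 CPM in LFD and 2716 ± 449 in HFD (SD, n = 4), and it was 2658 ± 921 with the siRNA and 4497 ± 1033 with the inhibitor. All but 1 of the HFD + Inhib libraries lay above every other library, the exception being replicate 1 at 3393 CPM against 3466 in HFD + siRNA replicate 2. The summed level of the 10 uptake, esterification and efflux genes was 1131 ± 51.7, 1093 ± 68.5, 1054 ± 57.5 and 1121 ± 90.3 CPM in the same order, and all 4 groups overlapped. 

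**Figure D4:**
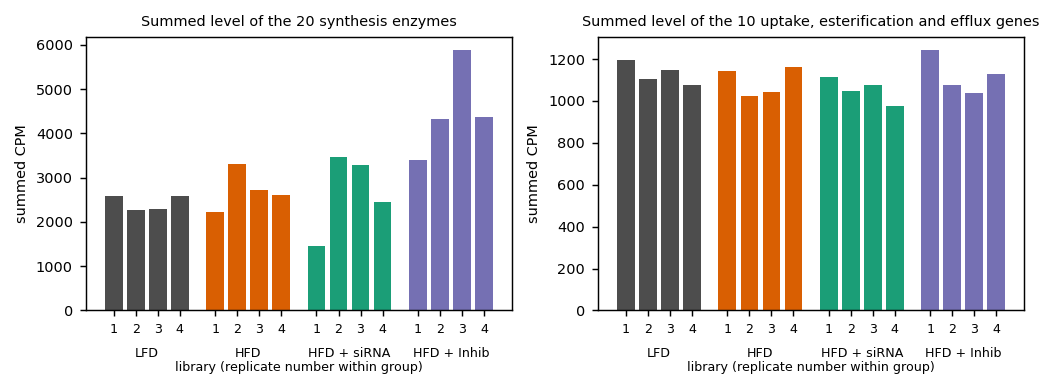
Summed level in CPM (vertical axes, from 0, with different scales) of the 20 synthesis enzymes (left) and of the 10 uptake, esterification and efflux genes (right) in each library, with bars numbered by replicate and coloured by group. The synthesis sum runs from 1449 in HFD + siRNA replicate 1 to 5889.7 in HFD + Inhib replicate 3, and the other sum from 978 to 1244.

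Of the exporters none was called in any comparison in the fit of all 16 libraries without a replicate block. Between the inhibitor and the siRNA, Abcg5 passed without HFD + siRNA replicate 1 (0.57, adjusted p = 0.0265) and Abcg1 without HFD + siRNA replicate 2 (-0.37, adjusted p = 0.0251). Abca1 stood at 438 ± 69.7 CPM in LFD, 395 ± 19.1 in HFD, 395 ± 42.7 with the siRNA and 444 ± 45.7 with the inhibitor (SD, n = 4). Abcg5 stood at 52 ± 10.8, 65.4 ± 10.5, 59.9 ± 17.3 and 75.6 ± 16.4 CPM in the same order and Abcg8 at 83.9 ± 18.4, 92.4 ± 21.5, 92.6 ± 26.5 and 114 ± 31.1. Abcg5 and Abcg8 were highest in replicate 1 of all 4 groups. The summed synthesis level of replicate 1 was the lowest of its group in HFD, HFD + siRNA and HFD + Inhib but not in LFD, where it was 2593 CPM against a highest library of 2595. The pair lies head to head on opposite strands, and their promoter windows share 209 bases. Npc1, Npc2, Stard4 (a cytosolic sterol carrier), Mylip (a ubiquitin ligase that degrades lipoprotein receptors) and Soat2 were called in no comparison either.

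Promoter sequence was looked at because 10 of the 20 enzymes were called higher in the inhibitor group. For 26 of the 34 genes, 17 of them enzymes, entries of the RefSeq promoter table were used (build GRCm38.p6, windows from 250 bases before to 50 bases after the start of a gene). The other members had no entry or were left out of this search. Searched on both strands, the sterol response element core TCACCCCAC was found in 1 of the 17 enzymes and in none of the 9 other genes, against 0.551% of all 32851 windows. Its looser form TCACNCCAC, which covers the first, was found in the same gene alone, against 1.24%. CCAAT, a frequent promoter motif that NF-Y binds, was found in 16 of the 17 enzymes (all but Acat2) and 7 of the 9 others, against 37.4% of all windows, where a gene with several windows was counted if any of them held it. Counted by window, the shares were 80% for the enzymes and 53.8% for the others. DR4, the direct repeat that LXR binds (AGGTCA, any 4 bases, AGGTCA), was found in none of the 26 genes and in 0.0152% of all windows. The 1 gene with the core is Hmgcs1. Its 250 bases before the start, chr13:119690101-119690350 on the plus strand of GRCm38.p6, are shown 5′ to 3′ with the core (starting 137 bases before the start) and 3 CCAAT matches (237, 176 and 45 bases before it, read as ATTGG on this strand) in capitals.
Hmgcs1: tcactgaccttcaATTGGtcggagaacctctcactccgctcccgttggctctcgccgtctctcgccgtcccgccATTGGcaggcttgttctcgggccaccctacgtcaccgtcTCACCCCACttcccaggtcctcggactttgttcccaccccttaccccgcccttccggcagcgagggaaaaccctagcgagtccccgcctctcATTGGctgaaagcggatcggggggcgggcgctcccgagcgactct

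A further list of 30 sterol genes outside the 34 was read in the same fit, with 11 of regulation, 11 of transport and ester turnover and 8 on the lipoprotein side. HFD versus LFD called 9 of the 30 (5 higher, 4 lower), HFD + siRNA versus HFD 7 (3 higher, 4 lower), HFD + Inhib versus HFD 6 (4 higher, 2 lower) and HFD + Inhib versus HFD + siRNA 15 (8 higher, 7 lower). These are 30%, 23.3%, 20% and 50% of the list, against 18.4%, 11.7%, 18.2% and 33.8% of all tested genes, so the share with the inhibitor against HFD was near the background. In HFD + Inhib versus HFD none of the 11 regulation genes was called, and the median over the 30 genes was -0.03.

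Nceh1, a hydrolase of cholesterol esters, was called in all 4 comparisons. It was at 13.7, 22.6, 27.4 and 25.3 CPM in LFD, 38.6, 42.1, 37.8 and 48.4 in HFD, 19.8, 31.5, 23.7 and 20.6 in HFD + siRNA, and 91.9, 86.7, 75.1 and 93 in HFD + Inhib. HFD lay above LFD and above HFD + siRNA, and HFD + Inhib above all. Nceh1 rose by 0.90 on the log2 scale with the diet (SE 0.18, adjusted p = 0.00351), and from HFD it fell by 0.80 with the siRNA (SE 0.18, adjusted p = 0.00996) and rose by 1.05 with the inhibitor (SE 0.18, adjusted p = 6.4e-04). Between the treatments it was higher with the inhibitor by 1.86 (SE 0.18, adjusted p = 2.2e-06).

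Pltp, the phospholipid transfer protein of plasma lipoproteins, was at 42, 54.9, 43.2 and 43.1 CPM in HFD and at 147, 164, 208 and 189 in HFD + Inhib, and rose by 1.95 (SE 0.18, adjusted p = 2.7e-06). Lpcat3, which remodels phospholipids and is a known LXR target, was at 79.1, 77.3, 103 and 81.5 CPM in HFD and at 181, 146, 179.9 and 169 in HFD + Inhib, and rose by 0.99 (SE 0.11, adjusted p = 8.1e-06). Both were far from overlapping. In HFD + siRNA Pltp was at 31.9, 24.4, 38 and 31.7 CPM, and it was higher with the inhibitor than with the siRNA by 2.49 (SE 0.19, adjusted p = 1.6e-07).

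Gramd1c, a sterol carrier between membranes, was at 26.2, 36.5, 28.1 and 36.4 CPM in LFD and at 46.3, 55.9, 58 and 46.3 in HFD and rose by 0.70 (SE 0.11, adjusted p = 9.5e-04). Apoa1, the main protein of HDL, was at 6931, 4684, 6722 and 4401 CPM in LFD and at 4249, 3803, 3883 and 4168 in HFD and fell by 0.50 (SE 0.15, adjusted p = 0.0333). Neither gene had overlapping groups. The Apoa1 call was lost without LFD replicate 1 or 3, without any 1 of the 4 HFD libraries, and after correction for GC content and length (-0.26, adjusted p = 0.276). Rnf139, a ubiquitin ligase of the endoplasmic reticulum, was at 35.9, 35.5, 35.3 and 34.8 CPM in HFD and at 25.4, 21.9, 23.6 and 19 in HFD + siRNA, with no overlap, and fell by 0.65 (SE 0.13, adjusted p = 0.00558). With the GC and length correction its log2 fold change was -0.36, and the call was lost once the replicate number was fitted too (adjusted p = 0.057). Syvn1, a ligase of the same compartment, was at 54.4, 74.1, 47 and 33.7 CPM in HFD and at 75.1, 165, 70.8 and 162 in HFD + siRNA and rose by 1.18 (SE 0.30, adjusted p = 0.019). Its groups overlapped, and its call was lost without HFD replicate 3 or 4 or HFD + siRNA replicate 2 or 4 (adjusted p up to 0.0738). With the inhibitor it was at 42.4, 66.8, 46.4 and 36.5 CPM, below every HFD + siRNA library, and lower than with the siRNA (-1.30, SE 0.30, adjusted p = 0.00341).

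Cell type markers were read beside these results. The 6 hepatocyte markers summed to 78787 ± 7077 CPM in LFD, 70287 ± 6152 in HFD, 75729.7 ± 4651 with the siRNA and 47150.0 ± 1488 with the inhibitor (SD, n = 4), and of these Alb, the most abundant, fell by 0.77 (SE 0.13, adjusted p = 7.6e-04) and Ttr by 0.93 (SE 0.12, adjusted p = 5.6e-05) in HFD + Inhib versus HFD. The other 4 were not called there. The 8 macrophage and Kupffer cell markers summed to 262 ± 26 CPM in HFD and 206 ± 38.8 in HFD + Inhib, with Clec4f, the most abundant, and Cd5l lower. The other 6 were not called, and their log2 fold changes ran from -0.31 for Csf1r to 0.84 for Marco. In the same comparison, where 9.80% of all tested genes were higher and 8.42% lower, 1 of 4 markers of lipid-associated macrophages was higher and 1 lower, 1 of 5 stellate cell markers was lower, 1 of 5 endothelial markers was higher, 0 of 4 cholangiocyte markers were called and 2 of 4 lymphocyte markers were lower. The adipocyte markers Adipoq, Lep and Plin1 summed to at most 1.03 CPM in any library and were not tested. Of 4 pancreas markers Prss1 and Amy2a2 were at 0 in every library and only Cela1 was tested, which was lower with the inhibitor, and of 3 adrenal cortex markers Cyp11b1 was at 0 in every library. Of 2 intestine markers Fabp2 was higher with the inhibitor. In HFD versus LFD, where 18.4% of all tested genes were called, 1 of 6 hepatocyte markers was called (Serpina1a, -0.54) and 0 of 8 macrophage and Kupffer cell markers, 3 of 4 markers of lipid-associated macrophages (Gpnmb 1.60 and Spp1 0.62 higher, Cd9 -1.20 lower), and Reln (0.38), Cela1 (0.66) and Fabp2 (1.53), all higher. In HFD + siRNA versus HFD, with 11.7% of all genes called, the markers called were Serpina1a (0.51) and Cela1 (0.65), both higher. With the inhibitor against the siRNA, where 16.6% of all tested genes were lower, 4 of the 6 hepatocyte and 4 of the 8 macrophage and Kupffer cell markers were lower, as were Trem2 (-2.33), Reln (-0.77), Stab2 (-0.36) and Cela1 (-2.22), while Cd9 (0.59) and Lyve1 (1.34) were higher. The part of these differences in the cholesterol gene results was not tested.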

How the data were processed

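RNA was measured in 16 liver libraries, and the expected counts per gene symbol were deposited by the authors as 1 table. The submitters' processing notes name STAR, RSEM and the mouse build mm39 (versions not given in the sources used here), while the study's methods describe a probe-based sequencing assay for liver RNA, so which assay gave these values is unclear. Of the values 15.1% were not whole, and all were rounded. Groups came from the sample labels, and no within-group pair of libraries was alike enough to be 1 library deposited more than once (chi-square per gene 20.6 to 154). The labels give only the group and number of each replicate, and each library was taken as a separate mouse.

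Genes were filtered with filterByExpr (minimum count 10, minimum total 15), scaled by TMM and tested in 1 fit of all 16 libraries with edgeR 4.0.16 (glmQLFit and glmQLFTest, limma 3.58.1, R 4.3.3), without a replicate block. p-values were adjusted by Benjamini-Hochberg over all 18335 tested genes and called under 0.05. An exploratory fit was run before it. The scripts were tested on simulated data. Alternatives were DESeq2 1.42.0, its size factors in edgeR, no filter, at least 10 counts in every library, only the compared groups, a replicate block, a GC and length correction (16088 genes, 87.7% of those tested), both of these together, an adjusted p under 0.01, and each library left out in turn.

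The members and lists were chosen with earlier results of these data known. Given library by library were Srebf2, Insig1 and, per comparison, the 3 enzymes and the 3 other members with the largest called log2 fold change, and, for the compared groups only, the 3 further sterol genes with the largest. Transcript lengths (longest coding transcript, a definition set after seeing the data) and shared words came from GENCODE M21 and promoters from RefSeq, both on GRCm38, so no coordinate of the table's build is given. A few genes of the pathway are not reported here.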

Additional observations from a re-analysis of the deposited data

Results flagged for a closer look

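In 4 of the 140 combinations of gene and group examined (the 34 genes and Khk in 4 groups), 1 library stood apart from the other 3 of its group by Dixon's criterion, which chance meets in about 1 in 20. Mvd, the mevalonate diphosphate decarboxylase, was at 7.4 CPM in HFD + siRNA replicate 1, and the next lowest library of that group was at 22.7. Sqle, squalene epoxidase, was at 96.5 CPM in HFD replicate 2, and the next highest HFD library was at 56.5. Soat2 was at 20.9 CPM in the same HFD library, and the next lowest was at 27.2. Abca1 was at 543 CPM in LFD replicate 1, and the next highest LFD library was at 407. Mvd, Sqle, Soat2 and Abca1 were called in no comparison.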

How the results depend on the processing

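Of 27 pairs of member and comparison that were called, 16 kept their call in all 17 alternatives, and over 459 values 396 kept it, 63 lost it and none reversed. In HFD versus LFD the number of synthesis enzymes called, 2, was 4 with DESeq2, 4 in the fit of the compared groups alone and 4 with the replicate block, and 1 without a filter, 1 with GC, length and block together and 1 at an adjusted p under 0.01. It ran from 1 to 3 when a library was left out, and the number of other genes from 1 to 2, with 1 at the stricter threshold. In HFD + Inhib versus HFD the 10 enzymes became 3 at the stricter threshold and 4 to 11 without a library. Fdft1, Cyp51 and Sc5d, uncalled in the main fit, passed there with DESeq2, and Idi1, Fdps, Fdft1 and Cyp51 in the fit of the compared groups alone. The 1 other gene called, Scarb1, became 2 with the GC and length correction, where Scap was added. It became 3 with the block added, where Abcg8 passed too, 0 at the stricter threshold and 0 to 1 without a library. In HFD + Inhib versus HFD + siRNA the other genes became 4 with the GC correction and block together, where Abcg5 (0.44) and Abcg8 (0.48) were added. Of the exporters, Abcg5 also passed with the block alone in this comparison (0.35) and in HFD versus LFD (0.34, and 0.40 with GC correction and block), and Abcg8 in HFD + Inhib versus HFD with GC correction and block (0.38).

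Several uncalled values, not all of them near 0, changed sign, here in the order GC and length correction, then with the replicate block. Scarb1 became 0.07 and 0.05 in HFD versus LFD and -0.01 and -0.00 in HFD + siRNA versus HFD, and in the latter Hsd17b7 became 0.08 and 0.06 and Hmgcs1 became 0.04 with the correction alone. Insig1 became -0.00 and -0.00 in HFD + Inhib versus HFD. In HFD + Inhib versus HFD + siRNA, Srebf2 went from -0.25 to 0.06 and 0.06. Scap went there from -0.12 to 0.21 and 0.20, and Tm7sf2 from -0.15 to 0.10 and 0.10. Leaving out a library gave -0.24 to 0.04 for Scarb1 in HFD versus LFD, -0.36 to 0.12 for Hmgcs1 and -0.28 to 0.12 for Hsd17b7 in HFD + siRNA versus HFD, and -0.05 to 0.09 for Srebf2 and -0.03 to 0.17 for Insig1 in HFD + Inhib versus HFD. The cause was not tested. Of 88 uncalled pairs of members not given library by library, 15 gained a call in some alternative and 32 changed sign in some, none of these with a call of the other sign.

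Same-numbered libraries correlated between -0.13 and 0.34 in their deviations from the group means. In the 4 comparisons 0, 1, 2 and 2 of 4 libraries correlated best with their own number. The labels state no pairing, and 4 libraries a group are too few for these values to decide whether the replicate numbers pair the samples. With the replicate block 4, 2, 11 and 9 enzymes were called, in the order of the comparisons above. With GC correction and block together the calls of Rnf139 (-0.36, adjusted p = 0.057) and of Ebp in HFD versus LFD (-0.27, adjusted p = 0.0639) were lost, that of Ebp also at the stricter threshold. Interpretation is limited by 4 libraries a group, by a spread within the high-fat diet groups that most synthesis enzymes share, and by an injection that the labels do not assign.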
